A study of Mus musculus with 11 samples.

Results

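The 34 genes described here are mouse imprinted genes, out of 34614 protein-coding and long noncoding genes with a position. No cutoff on values picked them, but the list was chosen with earlier results of these data known. All 34 had RNA rows, and 25 of them lie in 7 imprinted clusters of 2 or more members while 9 stand alone. The study profiled chromatin and RNA of the embryonic mouse kidney in 11 samples, with 1 sample in every group. Histone marks were mapped in 3 populations. Cap mesenchyme, the nephron progenitor layer, came from E18.5 Cited1nuc-TagRFP-T embryos as Cited1-RFP+ cells; the line began as a (C57BL/6 x DBA)F1 and had been kept on C57BL/6J (N5). Ureteric epithelium, which forms the collecting ducts, came from E15.5 Hoxb7myr-Venus/+ embryos as Hoxb7-GFP+ cells; this line began as a (C57BL/6J x CBA/J)F2 and had also been kept on C57BL/6J. E14 is an established embryonic stem cell line, 129/Ola, wild type, at passage 15. Both reporter populations are defined by the cells in which the Cited1 or Hoxb7 transgene is active. RNA came from other material, metanephric mesenchyme and ureteric epithelium of wild-type C57BL/6 embryos at E11.5, separated by hand. Stage, genotype and method of isolation therefore differ between the chromatin and the RNA and cannot be told apart from any difference between them. The chromatin of cap mesenchyme and of ureteric epithelium also differs in stage, reporter line and line origin. In any difference between their marks, these cannot be told apart from cell type. No RNA sample of the stem cells was analysed here.

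An imprinted gene is transcribed mainly from the copy inherited from 1 parent. The choice follows DNA methylation placed in the egg or sperm at a control region, and most such regions are methylated on the maternal copy and overlap a promoter that is active on the paternal copy. Several clusters act through a long noncoding RNA from that promoter (Airn, Kcnq1ot1), others through insulation (H19 and Igf2). H3K4me3 is a histone mark of active or poised promoters, and H3K27me3 is laid down by Polycomb complexes at silenced genes. In fetal organs many paternally expressed members promote growth (Igf2, Peg3, Dlk1, Mest) and many maternally expressed members restrain it (Cdkn1c, Igf2r, Grb10, H19), and loss of Cdkn1c is known to disturb the kidney. By the parental assignment in general use, 19 members are paternally expressed and 13 maternally expressed, while Grb10 and Gnas differ by isoform or tissue. None of the files separates the parental copies, so every value below is the sum of both.

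Promoter sequences show how unlike these starts are. RefSeq promoters on GRCm38.p6, the same assembly as mm10, matched 26 of the 34 members. The 6 below are the 150 bases directly before the outermost listed start, 5′ to 3′ on the gene's own strand, with every CpG in capitals. Plagl1 (chr10:13090682-13090831, plus strand), Nnat (chr2:157559928-157560077, plus strand) and Nap1l5 (chr6:58907127-58907276, minus strand) are shown because their starts had H3K4me3 in both kidney populations and none in E14 cells. Grb10 (chr11:12037421-12037570, minus strand) carried both marks in all 3 populations. Meg3 (chr12:109540846-109540995, plus strand) and the outermost Igf2 start (chr7:142666817-142666966, minus strand) differed between the kidney populations.
Plagl1: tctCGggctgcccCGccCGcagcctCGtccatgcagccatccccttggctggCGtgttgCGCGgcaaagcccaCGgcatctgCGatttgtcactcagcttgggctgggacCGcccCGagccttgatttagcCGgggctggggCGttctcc
Nnat: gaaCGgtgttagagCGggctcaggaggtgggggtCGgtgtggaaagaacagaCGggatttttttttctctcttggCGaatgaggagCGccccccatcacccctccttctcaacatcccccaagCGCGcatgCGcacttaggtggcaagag
Nap1l5: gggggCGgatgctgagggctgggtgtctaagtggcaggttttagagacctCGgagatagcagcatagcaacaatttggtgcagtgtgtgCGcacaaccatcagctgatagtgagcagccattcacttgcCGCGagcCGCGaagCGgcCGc
Grb10: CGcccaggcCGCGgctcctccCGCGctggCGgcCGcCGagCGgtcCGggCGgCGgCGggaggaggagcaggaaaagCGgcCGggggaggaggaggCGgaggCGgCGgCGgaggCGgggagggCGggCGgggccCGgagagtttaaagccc
Meg3: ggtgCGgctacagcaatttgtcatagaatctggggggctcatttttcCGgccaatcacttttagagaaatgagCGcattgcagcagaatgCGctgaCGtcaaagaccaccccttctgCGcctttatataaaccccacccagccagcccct
Igf2: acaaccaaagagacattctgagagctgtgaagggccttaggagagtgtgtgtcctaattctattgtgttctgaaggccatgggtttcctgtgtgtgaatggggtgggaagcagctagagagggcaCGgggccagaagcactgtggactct
Grb10 held 23 CpGs in these 150 bases and Plagl1 held 13. Nnat and Nap1l5 held 9 each, Meg3 held 6, and the outermost Igf2 start held 1.

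Full windows held 300 bases, 250 before the start and 50 after. The 38 listed promoters of the 26 matched members had a median of 10.5 CpGs against 7 over all 32851 listed promoters. Starts of a member closer than 300 bases were counted once, which was not done for all promoters. The ratio of observed to expected CpG had a median of 0.579 in the members and 0.384 over all promoters. TGCCGC, the hexamer known to be bound by ZFP57 when methylated, was searched on both strands. It was found in 9 of the 38 member promoters (23.7%) and in 11.6% of all promoters. The hexamer holds a CpG, and the part of the members' higher CpG count in this share was not tested. Some members have a start known to lie at a maternally methylated germline region. Among the 14 promoters of 10 such members the hexamer was found in 5 (35.7%), and among the other 24 in 4 (16.7%). Promoters were grouped by gene, so the 14 include further Snrpn and Mest starts that need not lie at such a region. The 24 include inner Grb10 and Gnas starts, so the shares do not set such regions against the rest. CCATNTT, the core known for YY1, was found on either strand in 13.2% of member promoters and 16.1% of all promoters. A match describes letters in the window and is not a site of binding.

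The RNA values are FPKM, fragment counts divided by transcript length and library size, so levels can be compared between genes per length. The authors' values per transcript were summed to genes. A difference is log2(FPKM + 1) in mesenchyme minus the same in ureteric epithelium, which understates the change of genes of low level, and a gene was counted at a difference of at least 2 (4-fold) where its larger value was 2 FPKM or more. With 1 library of each tissue there is no replicate check and no test. The labelled tissues were plain in the RNA. Nephron progenitor markers summed to 193 FPKM in mesenchyme and 10.74 in ureteric epithelium (6 genes), although Cited1 itself stood at 2.78 and 8.35 FPKM, and ureteric markers summed to 15.0 and 2220 FPKM (7 genes). The mesenchyme library also held markers of other cells. Those of renal stroma summed to 233 FPKM against 2.20 (4 of 4 genes 4-fold higher), those of endothelium to 29.1 against 3.09 (3 of 5), and those of blood to 3.10 against 0.228 (0 of 5, with Hba-a1 at 0 in both). Neuron and neural crest markers summed to 4.29 and 5.07 FPKM. Of the 4 stem cell markers Pou5f1 and Nanog were at 0 in both libraries. The typical gene was lower in mesenchyme. The median difference was -0.45 over the 9753 genes at 1 FPKM or more in both libraries, and differences are best read against that shift.

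Imprinted genes were among the most abundant RNAs of both tissues. At 100 FPKM or more stood 7 of the 34 members in mesenchyme, where 0.44% of the 30937 genes with a row reached that level, and 5 in ureteric epithelium, where 0.818% did. H19 led, at 1018 FPKM in mesenchyme and 984 in ureteric epithelium, ranks 4 and 9 of all genes. Gnas, Grb10, Igf2 and Mest passed 100 FPKM in both libraries, and Peg3 and Cdkn1c in mesenchyme alone. In all, 25 members reached 1 FPKM in mesenchyme (34% of all genes did) and 23 in ureteric epithelium (35.1%), and 26 did so in either.

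The widest differences between the tissues lay in 2 clusters. Dlk1, Meg3 and Zim1 were 4-fold or more higher in mesenchyme, 3 of 34 members where 0.727% of all genes with a row were, and 0 members were 4-fold higher in ureteric epithelium, where 1.57% of genes were. Among genes at 1 FPKM or more in either library the same 3 stood among 26 members, where 1.94% of genes were called, and the share of genes called in the other direction was 4.18%. The median difference of the 26 members was 0.06, against -0.46 over the 11614 genes under the same filter. Above 0 were 16 of the 26, with Ube3a rounding to 0.00, where 23.4% of genes were. Stromal, endothelial and blood markers were higher in the same library, as given above, and their part in these differences was not tested. In bulk tissue, fewer cells of a type and less RNA per cell cannot be told apart. The called members depended on scale. With a pseudocount of 5 FPKM Meg3 alone passed, where 0.213% of genes did, and with the differences recentred on 0 Rian and Peg3 passed as well, where 1.13% did. The Meg3 call rests on assembled transcripts that match RefSeq in part, since its 3 transcripts that match in full were listed at 0 in both libraries.

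**Figure D1:**
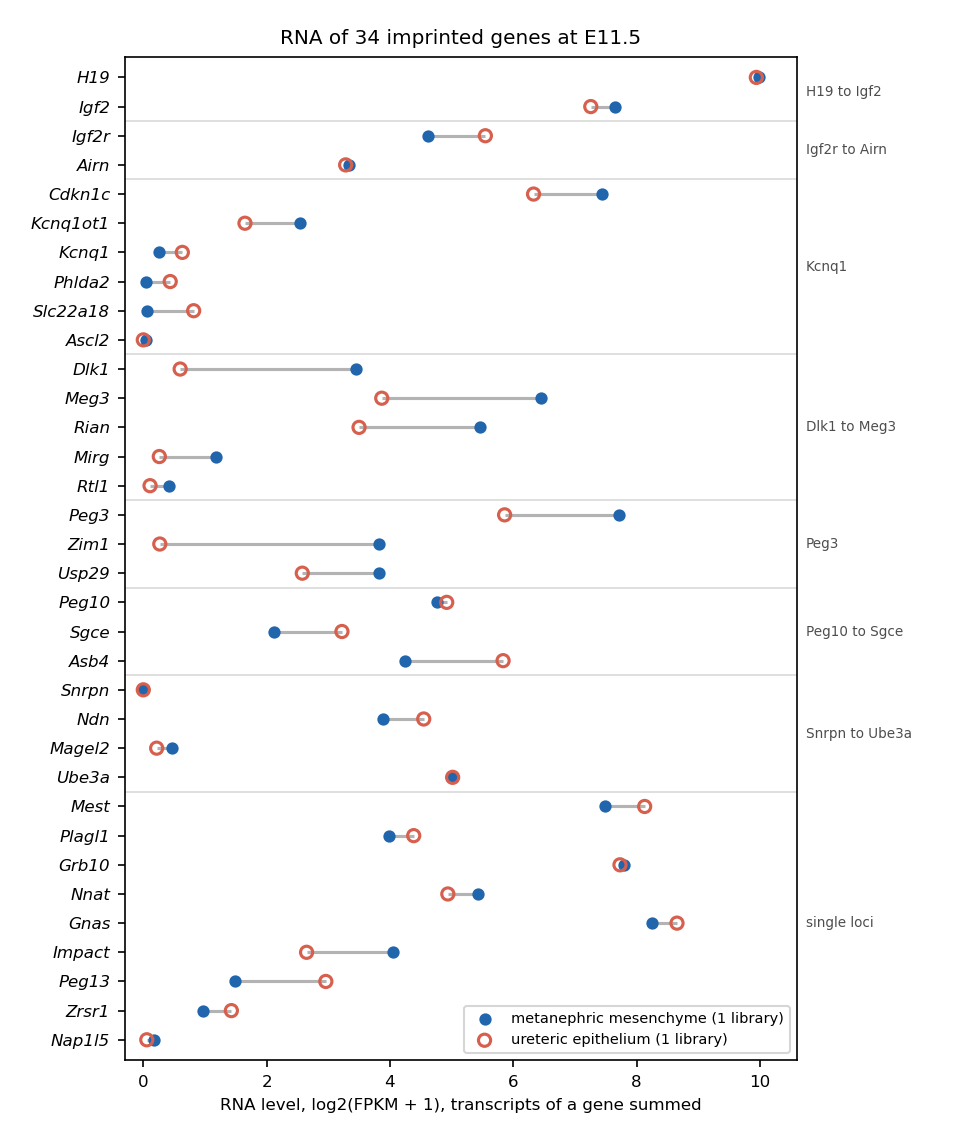
RNA level of each of the 34 imprinted genes in the mesenchyme library (filled) and the ureteric epithelium library (open), as log2(FPKM + 1), with clusters separated by lines. The longest gaps are those of Zim1 (3.55), Dlk1 (2.86) and Meg3 (2.59), all with the filled point to the right, and H19 lies farthest right in both libraries.

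Dlk1 to Meg3 cluster, chromosome 12. Dlk1 (chr12:109452485-109463336, plus strand), the paternally expressed gene of a membrane ligand related to Notch ligands, stood at 9.99 FPKM in mesenchyme and 0.51 in ureteric epithelium. Meg3 (chr12:109540996-109571729, plus strand), a maternally expressed noncoding RNA, stood at 86.8 and 13.6 FPKM. Rian, a noncoding RNA that hosts small nucleolar RNAs, stood at 43.1 and 10.3 FPKM, a difference of 1.96. Mirg, which hosts microRNAs, stood at 1.26 and 0.20 FPKM, and Rtl1, a gene derived from a retrotransposon, at 0.33 and 0.08 FPKM. All 5 were higher in mesenchyme, whichever parental copy is known to be expressed, and the 4 that reached 1 FPKM had a median difference of 2.28. A 161-base transcript opposite Mirg had 72.5 FPKM in mesenchyme and 11.2 in ureteric epithelium. It was kept out of the sum for Mirg, and whether fragments were counted by strand is not given in the sources used here.

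The chromatin of this cluster differed between the populations as well, here at later, unequal stages and in sorted cells of different reporter lines. A mark was called at a start when a deposited peak covered at least 1 bp within 1 kb on either side. H3K4me3 covered 48.6% of the Dlk1 start window in cap mesenchyme, 0% in ureteric epithelium and, for E14 cells, 66.8%. H3K27me3 covered 86.4%, 93.9% and 0% of the same window, in a 4.20 kb peak in ureteric epithelium and in narrower peaks in cap mesenchyme. So by this rule the Dlk1 start had both marks in cap mesenchyme, H3K27me3 alone in ureteric epithelium and H3K4me3 alone in E14 cells. Its H3K4me3 calls in cap mesenchyme and E14 cells were each kept in 5 of 7 other settings. The nearest ureteric H3K4me3 peak lay 2.11 kb away. The H3K4me3 difference between the kidney populations was lost with a window of 2.5 kb, with 50% of the window covered, and with the better-scoring 50% of every list. The Meg3 start followed the same order for H3K4me3, at 76.4%, 0% and 100% of its window. Its H3K27me3 was slight, 0.50% in cap mesenchyme and 16.3% in ureteric epithelium, from peaks scoring 47.0 and 38.9, above which lay 64.6% and 51.5% of their lists, and each call was kept in 3 of 7 other settings. Rian, Mirg and Rtl1 had neither mark at their starts in any population. Meg3 and Rian were 2 of the 4 members with 10 FPKM or more in ureteric RNA and no H3K4me3 at any listed start in ureteric chromatin. Between Dlk1 and Meg3, in the stretch known to hold the control region, the E14 list had an H3K4me3 peak of 12.45 kb, from -19.5 to -7.05 kb relative to the Meg3 start. Inside that span the cap mesenchyme list had a peak of 1.07 kb and the ureteric list 1 of 0.786 kb.

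**Figure D2:**
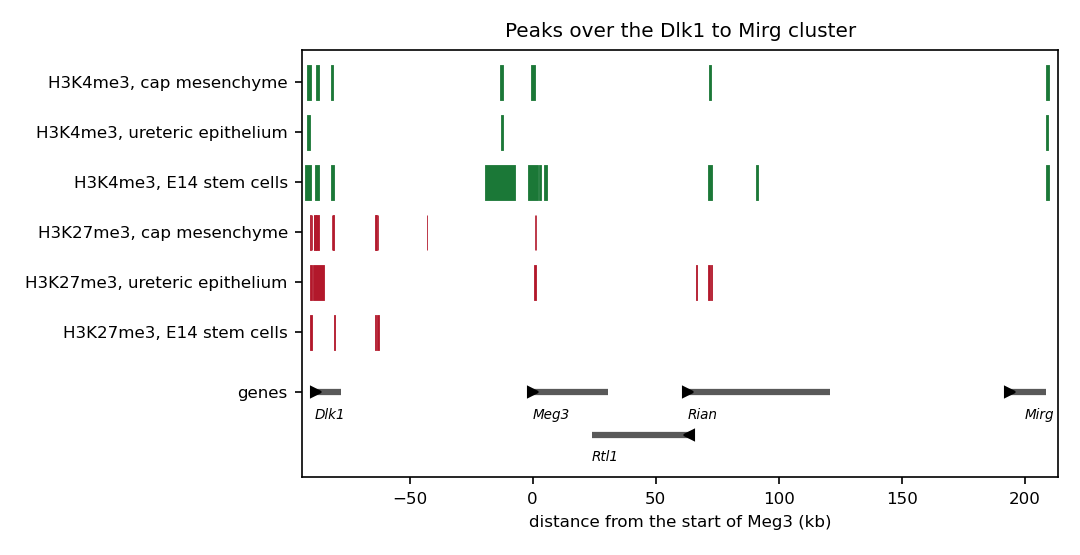
Peaks of the 6 lists (green H3K4me3, red H3K27me3) over the Dlk1 to Mirg cluster by distance from the Meg3 start in kb, with genes as grey bars and their starts as arrowheads. H3K4me3 lies at the Meg3 start in cap mesenchyme and E14 cells and not in ureteric epithelium, and the 12.45 kb peak of E14 cells stands before it.

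Peg3 cluster, chromosome 7. Zim1 (chr7:6674444-6696540, minus strand), a maternally expressed zinc finger gene, stood at 13.1 FPKM in mesenchyme and 0.20 in ureteric epithelium, the widest difference among the members. Peg3, a paternally expressed zinc finger gene known for its part in growth and maternal behaviour, stood at 208 and 57.1 FPKM, and Usp29, transcribed away from the same start region, at 13.1 and 4.98 FPKM. The authors' status for all 8 Peg3 transcripts in ureteric epithelium is FAIL, so the value of 57.1 FPKM has that mark against it. The 3 members were higher in mesenchyme whichever copy is known to be expressed, with a median difference of 1.85. H3K4me3 was called at all 3 starts in the 3 populations. It covered 100% of the Peg3 and Usp29 windows in every list, in a shared peak of 6.09, 5.02 and 5.88 kb in the order cap mesenchyme, ureteric epithelium, E14 cells. The Zim1 window was covered to 87.2%, 42.0% and 73.5%, in peaks of 3.24, 0.840 and 1.47 kb in that order. The ureteric Zim1 call was kept in 5 of 7 other settings. No H3K27me3 peak came within 1 kb of the 3 starts in any list, but over the cluster the ureteric list had 6 such peaks, covering 0.563% of bases, and the others had 0. Of the Zim1 FPKM, 3.88 in mesenchyme came from a transcript of status LOWDATA.

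H19 and Igf2, chromosome 7. H19 (chr7:142575530-142578146, minus strand) is a maternally expressed noncoding RNA, and Igf2 (chr7:142650768-142666816, minus strand) encodes the paternally expressed fetal growth factor. Igf2 stood at 199 FPKM in mesenchyme and 152 in ureteric epithelium, a difference of 0.39, and H19 differed by 0.05. The total of Igf2 hid a difference between its transcripts. A transcript of 3638 bases stood at 0.003 FPKM in mesenchyme (the authors' bounds 0 to 0.114) and 36.8 in ureteric epithelium (28.3 to 45.2). The 3 other Igf2 transcripts above 0 had 92.2, 99.8 and 7.03 FPKM in mesenchyme and 48.8, 54.4 and 12.2 in ureteric epithelium. The outermost of 4 listed Igf2 starts had H3K4me3 in ureteric epithelium over 58.6% of its window and none in cap mesenchyme or E14 cells, where the nearest peaks lay 2.09 and 2.22 kb away. Igf2 was the 1 member whose outermost start had H3K4me3 in ureteric epithelium while cap mesenchyme lacked it, a pattern of 0.806% of genes. With any listed start 0 members showed it, where 0.815% of genes did. The files do not pair that transcript with that start. The 3 inner starts had H3K4me3 over 68.9% or more of the window in all 3 populations, in peaks of 4.95, 5.80 and 5.13 kb.

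H3K27me3 at Igf2 differed between the populations too. Over the 3 inner starts it covered 23.9% to 70.4% of the windows in cap mesenchyme, 0% in ureteric epithelium and 40.1% to 100% in E14 cells. E14 cells had a peak of 7.31 kb, scoring 1040, above which lay 1.02% of their list. In cap mesenchyme 13 narrow peaks lay in the Igf2 body, with a summed width of 5.83 kb, and in ureteric epithelium 1 peak of 3.04 kb lay between the inner and the outermost starts. H19 had H3K4me3 over 77.2% of its start window in cap mesenchyme and 68.0% in ureteric epithelium. In E14 cells the nearest peak lay 26.7 kb away. A short H3K4me3 peak stood from 3.44 to 4.13 kb before the H19 start in the cap mesenchyme list and from 3.46 to 4.08 kb in the ureteric list. This is the side where the control region of the cluster is known to lie, and E14 cells had none there. The cap mesenchyme list also had a peak from 1.70 to 2.81 kb before the start, where the ureteric and E14 lists had none. It scored 445.8, against 82.05 for the cap mesenchyme peak farther out.

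**Figure D3:**
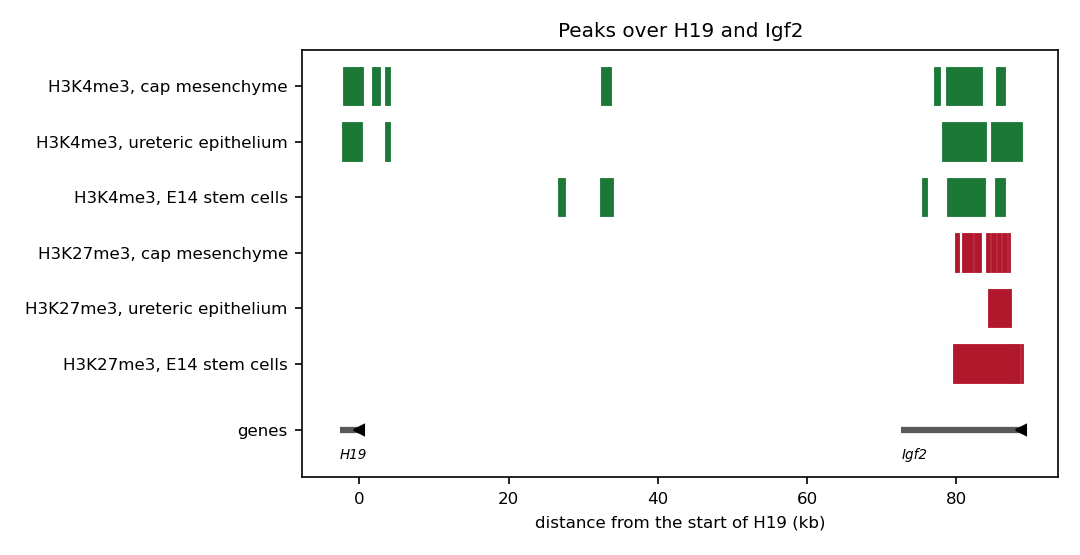
Peaks of the 6 lists over H19 and Igf2 by distance from the H19 start in kb, drawn in genome order, with both genes read from right to left. H3K4me3 stands at H19 in both kidney populations and not in E14 cells, and H3K27me3 fills 13 narrow peaks over Igf2 in cap mesenchyme and 1 peak in ureteric epithelium.

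Igf2r and Airn, chromosome 17. Igf2r (chr17:12682406-12769706, minus strand) encodes the receptor that clears IGF2, is maternally expressed, and stood at 23.4 FPKM in mesenchyme and 45.8 in ureteric epithelium. Airn, the paternally expressed RNA that starts inside Igf2r and runs opposite to it, stood at 9.13 and 8.73 FPKM. The assembly also held 17 transcripts of 378 to 3784 bases opposite Igf2r, of 2.27 to 9.67 FPKM each in mesenchyme and 1.89 to 8.88 in ureteric epithelium. These overlap the course of Airn and were kept out of the sum for Igf2r. The Airn start had H3K4me3 over 59.1%, 60.1% and 74.7% of its window in cap mesenchyme, ureteric epithelium and E14 cells, with no H3K27me3. The Igf2r start had H3K4me3 over 85.1%, 82.1% and 87.3%, and H3K27me3 over 55.4% in E14 cells, where it carried both marks.

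Kcnq1 cluster, chromosome 7. Cdkn1c (chr7:143458339-143461059, minus strand), the maternally expressed inhibitor of cyclin-dependent kinases, stood at 173 FPKM in mesenchyme and 79.5 in ureteric epithelium, a difference of 1.11. Kcnq1ot1, the paternally expressed RNA of the cluster, stood at 4.82 and 2.14 FPKM, a difference of 0.89. The other 4 members were under 1 FPKM in both libraries. Kcnq1, a potassium channel gene, stood at 0.20 and 0.55 FPKM, Phlda2, which restrains placental growth, at 0.03 and 0.35, Slc22a18, a transporter gene, at 0.04 and 0.76, and Ascl2, a placental transcription factor gene, at 0.03 and 0. So 4 low members shared a cluster with Cdkn1c, a gene of high level.

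At the Cdkn1c start H3K4me3 covered 88.7% of the window in cap mesenchyme, 0% in ureteric epithelium, where the nearest peak lay 22.3 kb away, and 100% in E14 cells. Its RNA in ureteric epithelium was 79.5 FPKM, and the RNA and the chromatin come from different stages and embryos. Kcnq1 showed the same order, 59.0%, 0% and 86.0%. Slc22a18 had H3K4me3 in E14 cells (76.7%) and in neither kidney population. Phlda2 and Ascl2, both near 0 in RNA, had both marks in all 3 populations: H3K4me3 covered 73.1% or more of either window, and H3K27me3 covered 61.4%, 19.4% and 30.8% of the Phlda2 window and 47.1%, 100% and 68.7% of the Ascl2 window. H3K27me3 over the whole cluster covered 0.586% of bases in cap mesenchyme, 1.45% in ureteric epithelium and, for E14 cells, 11.3%, in 11, 8 and 89 peaks. Of the 89 peaks of E14 cells, 64 lay in the Kcnq1 body outside Kcnq1ot1, with a summed width of 34.1 kb, and 8 lay where Kcnq1ot1 and Kcnq1 overlap. The Kcnq1ot1 start itself had H3K4me3 over 58.9%, 71.9% and 84.7% of its window, and its nearest H3K27me3 peak in E14 cells lay 17.1 kb away.

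**Figure D4:**
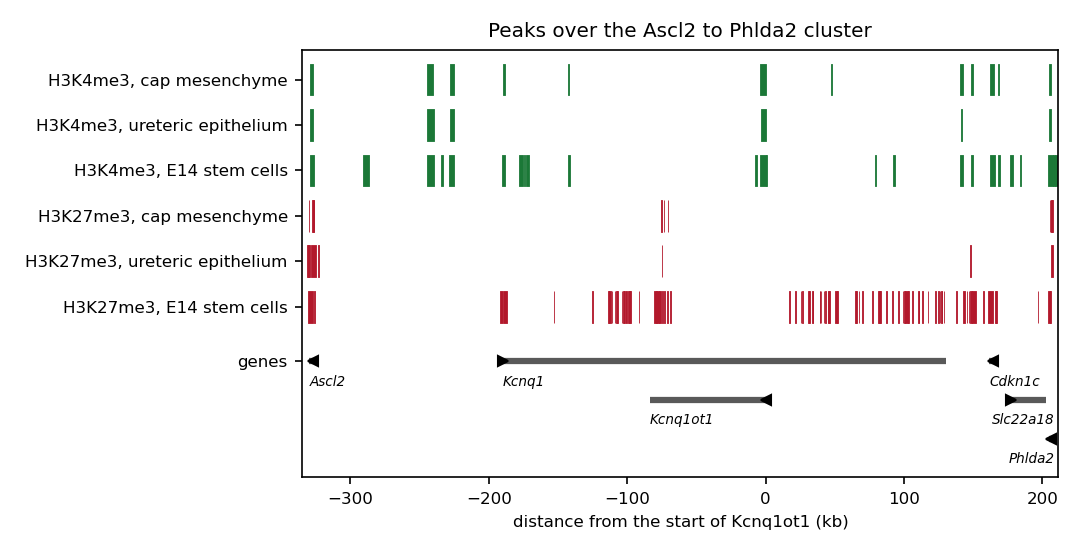
Peaks of the 6 lists over the Ascl2 to Phlda2 cluster by distance from the Kcnq1ot1 start in kb. H3K27me3 of E14 cells is spread over the Kcnq1 body and around Cdkn1c in 89 peaks, where cap mesenchyme had 11 and ureteric epithelium 8, and H3K4me3 at the Kcnq1ot1 start is present in all 3 populations.

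Peg10, Sgce and Asb4, chromosome 6. These were the members of a cluster that all lay below 0 in RNA, with a median difference of -1.10, so 2 of the 3 lay below the shift of all genes. Peg10, a paternally expressed gene derived from a retrotransposon and needed in the placenta, stood at 26.0 FPKM in mesenchyme and 29.3 in ureteric epithelium. Sgce, a sarcoglycan gene transcribed away from the same start region, stood at 3.35 and 8.33 FPKM. Asb4, a maternally expressed gene of a ubiquitin ligase subunit, stood at 18.0 and 56.1 FPKM, a difference of -1.59. Peg10 and Sgce share a start region and so share their marks. H3K4me3 covered 92.0% and 86.9% of their windows in cap mesenchyme and 100% in E14 cells, while in ureteric epithelium the nearest peak lay 22.4 kb or more away. Peg10 was the last of the 4 members with 10 FPKM or more in ureteric RNA and no H3K4me3 at a listed start there, with Cdkn1c, Meg3 and Rian. These were 4 of 16 such members, where 2.04% of all genes at that level lacked it. In cap mesenchyme against mesenchyme RNA the count was 1 of 19, Rian, where 1.95% of genes lacked it. Asb4 had H3K4me3 at its outer start in all 3 populations. At its inner start H3K4me3 covered 53.1% in cap mesenchyme, together with H3K27me3 over 45.7%, and 77.3% in ureteric epithelium without H3K27me3.

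Snrpn to Ube3a cluster, chromosome 7. Ube3a, the ubiquitin ligase gene lost in Angelman syndrome and biallelic outside neurons, stood at 31.4 FPKM in both libraries. Ndn, a paternally expressed gene of the MAGE family, stood at 13.8 FPKM in mesenchyme and 22.4 in ureteric epithelium, and its neighbour Magel2 at 0.38 and 0.16. The transcripts paired to Snrpn were listed at 0 in both libraries. Its usual transcript also encodes Snurf and is filed under that gene, at 2.98 FPKM in mesenchyme and 6.89 in ureteric epithelium. Of 4 listed Snrpn starts the innermost had H3K4me3 in all 3 populations, over 60.5%, 56.6% and 100% of its window, and the other 3 had none. Ndn and Magel2 had H3K4me3 in all 3 populations, and in E14 cells also H3K27me3, over 16.2% and 36.6% of their windows. Ube3a had H3K4me3 over 92.3% or more of its window in every list.

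Among the 9 members that stand alone, Mest, an enzyme gene of mesoderm, stood at 178 FPKM in mesenchyme and 280 in ureteric epithelium. Gnas, the gene of a stimulatory G protein subunit, stood at 304 and 402.6 FPKM, nearly all of it from 2 transcripts that the authors' status gives as LOWDATA in both libraries (175 and 117.6 FPKM in mesenchyme, 302.4 and 92.8 in ureteric epithelium). Grb10, an adaptor that damps insulin and IGF receptor signalling, stood at 221 and 212 FPKM. Nnat, a gene of a small membrane protein, stood at 42.3 and 29.7 FPKM. Impact, a regulator of translation under stress, stood at 5.27 FPKM in ureteric epithelium and 2.94 times that in mesenchyme, a difference of 1.40, with its leading transcript at status LOWDATA. Plagl1, a zinc finger factor gene known to act on other imprinted genes, stood at 14.9 and 19.9 FPKM. The noncoding RNA Peg13 stood at 1.80 and 6.79 FPKM, a difference of -1.47, Zrsr1, a splicing factor retrocopy, at 0.96 and 1.69, and Nap1l5, a nucleosome assembly protein retrocopy, at 0.13 and 0.04. In Nnat and Peg13 the leading transcript differed between the libraries. In Nnat a transcript of 1248 bases stood at 19.9 FPKM in mesenchyme (the authors' bounds 14.6 to 25.3) and 0.00046 in ureteric epithelium (0 to 0.142), while those of 1243 and 1194 bases stood at 0 and 4.01 FPKM in mesenchyme and 9.83 and 13.8 in ureteric epithelium. These Nnat transcripts differ in length by 54 bases or less, so their split rests on few bases, while the sum for the gene does not. The Peg13 transcripts of 4721 and 4336 bases stood at 1.01 and 0.79 FPKM in mesenchyme and 2.81 and 3.98 in ureteric epithelium.

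At 3 of these genes the marks differed between starts. The outer Mest start had H3K4me3 in E14 cells over 66.9% of its window and in neither kidney population, although a ureteric peak lay 1004 bases away, just outside the window, while its inner start had it in all 3 (100%, 91.7% and 100%). Grb10 had both marks at its outer start in all 3 populations, with H3K4me3 over 100% of the window and H3K27me3 over 47.3% in cap mesenchyme, 62.5% in ureteric epithelium and, for E14 cells, 56.0%. Its inner start, known as the neuronal one, had H3K27me3 alone in all 3, over 27.8%, 82.3% and 71.2%. The H3K4me3 peak at the outer Grb10 start was the widest at a member start in cap mesenchyme, at 7.65 kb. The outermost Gnas start had both marks in cap mesenchyme, H3K27me3 alone in ureteric epithelium and H3K4me3 alone in E14 cells, there in a peak of 14.85 kb. The ureteric H3K27me3 call covered 9.15% of the window, from a peak scoring 34.6, above which lay 71% of the list, and was kept in 3 of 7 other settings. The 3 inner Gnas starts had H3K4me3 over the whole window in every list, and 2 of them had H3K27me3 as well in E14 cells.

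Taking all 34 outermost starts, H3K4me3 was present at 27 in cap mesenchyme, 21 in ureteric epithelium and, for E14 cells, 24, where 50.3%, 46.4% and 55.8% of all 34614 genes had it. Counting any listed start, the numbers were 30, 24 and 26, where 51.1%, 47.2% and 56.5% of genes had it. The members' promoters hold more CpGs than the typical promoter, as given above, and the part of this in the counts was not tested. H3K4me3 in all 3 populations was found at 15 members, or 44.1%, where 44.8% of genes had it. At 7 members it was present in cap mesenchyme and absent in ureteric epithelium, where 4.72% of genes showed this: Cdkn1c, Kcnq1, Dlk1, Meg3, Peg10, Sgce and Gnas. With any listed start the count was 6, as Gnas left it, where 4.71% of genes were called. The 7 members named above hold 6 separate start regions, since Peg10 and Sgce share theirs. The ureteric list was the shortest of the 3 H3K4me3 lists (23958 peaks, against 32992 in cap mesenchyme and 67022 in E14 cells), and with the lists shortened to equal length the same 7 members were called, where 3.12% of genes were. With only the better-scoring 50% of every list the count was 13, without Dlk1 and Gnas, where 8.75% of genes were called. Markers were checked in the same way. H3K4me3 was at 6 of 7 ureteric marker starts in each kidney population, lacking at Calb1 in cap mesenchyme and at Hoxb7 in ureteric epithelium. H3K27me3 was at 4 of 7 in each. Of the pair, Calb1 had it in cap mesenchyme only and Epcam in ureteric epithelium only. Hoxb7, whose reporter defines the ureteric cells, had H3K4me3 in cap mesenchyme and neither mark in ureteric epithelium, the H3K4me3 order of those 7 members. H3K4me3 was at 6 of 6 nephron progenitor marker starts in both kidney populations, and H3K27me3 was at 0 of them in cap mesenchyme and 3 in ureteric epithelium. Stem cell markers had H3K4me3 at 4 of 4 starts in E14 cells, 1 in cap mesenchyme and 0 in ureteric epithelium. H3K4me3 was at 4 of 4 stromal marker starts in both kidney populations. It was at 5 of 5 endothelial marker starts in ureteric epithelium and at 1 of 5 in cap mesenchyme, and the part of other cells in the differences was not tested.

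**Figure D5:**
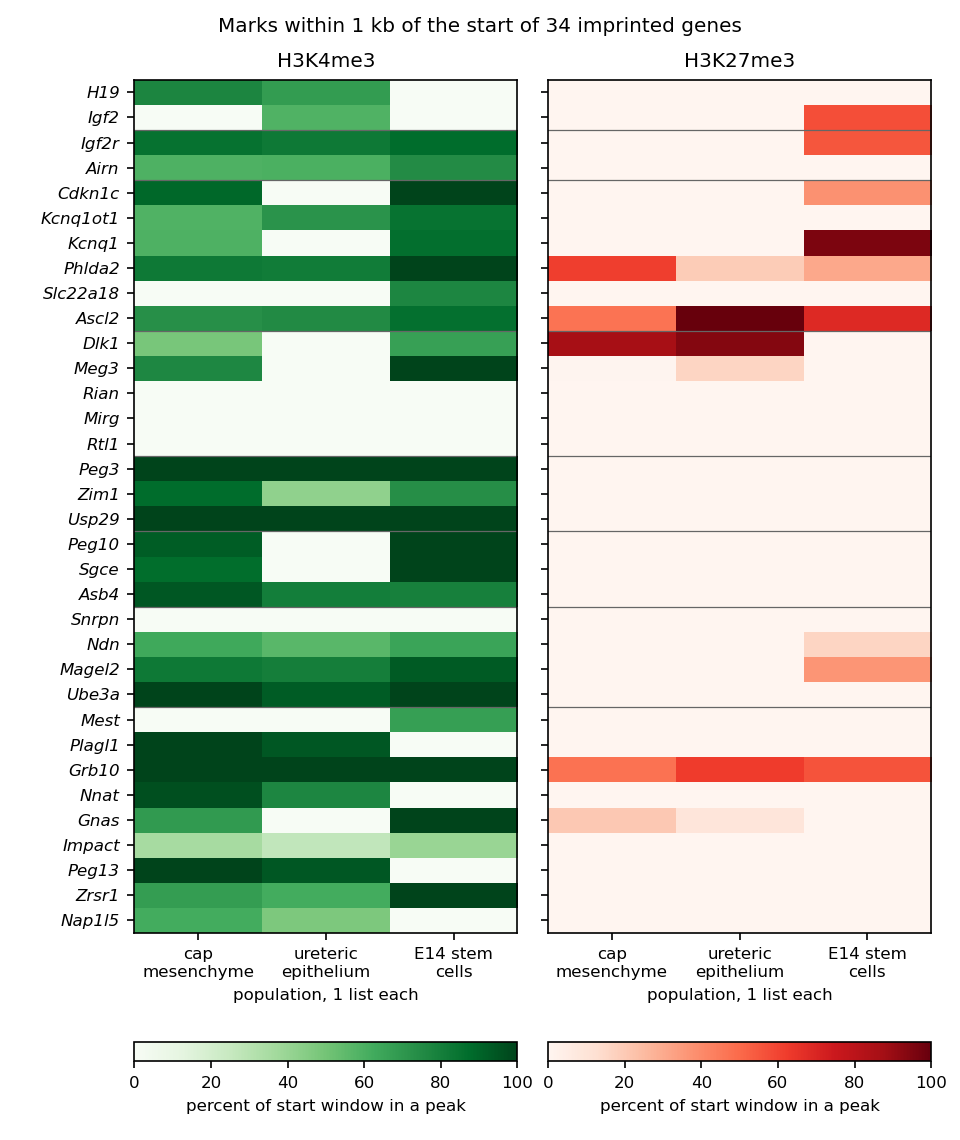
Percent of the window from 1 kb before to 1 kb after the outermost start of each member that lay in a peak, for H3K4me3 (green) and H3K27me3 (red) in each population. Pale H3K4me3 cells in the ureteric column beside dark ones in the cap mesenchyme column mark the 7 members named above, and pale cells in the E14 column alone mark H19, Plagl1, Nnat, Peg13 and Nap1l5.

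H3K4me3 was found in E14 cells alone at Slc22a18 and Mest, 2 members where 7.1% of genes showed this, and in no population at 4, Rian, Mirg, Rtl1 and Snrpn, where 41.8% did. The reverse contrast, H3K4me3 in both kidney populations and none in E14 cells, held 5 members: H19, Plagl1, Nnat, Peg13 and Nap1l5. Over all genes 0.797% showed it. H3K4me3 covered 62.0% to 100% of their windows in cap mesenchyme and 47.5% to 93.8% in ureteric epithelium. In E14 cells the nearest H3K4me3 peak lay 4.59 kb from Nnat, 15.6 kb from Plagl1, 26.7 kb from H19, 74.1 kb from Nap1l5 and 89.9 kb from Peg13, in the longest of the 3 lists. None of the 5 had H3K27me3 in any population. The count was 5 with a window of 2.5 kb (0.867% of genes), 4 where 50% of the window had to be covered (0.416%) and 3 with the better-scoring 50% of every list (0.742%), which kept H19, Plagl1 and Peg13. With lists of equal length, which shortens the E14 list most, it was 7, as Igf2r and Asb4 joined, and 5.44% of genes were called. Nap1l5 was the weakest of them, with a peak scoring 62.8 in ureteric epithelium, above which lay 89.6% of that list, and RNA under 1 FPKM in both libraries. E14 is a single cultured line, so a feature of that line and a feature of stem cells cannot be told apart.

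H3K27me3 was present at the start of 6 members in cap mesenchyme and 6 in ureteric epithelium, where 7.08% and 9.85% of all genes had it, and of 9 in E14 cells, where 9.87% had it. By the 1 bp rule the kidney populations shared all 6, Phlda2, Ascl2, Dlk1, Meg3, Grb10 and Gnas. Under that rule 0 members had it in cap mesenchyme alone of the pair (2.17% of genes) and 0 in ureteric epithelium alone (4.94%). The sharing was not kept in stricter settings, given below. Of the 6, Phlda2, Ascl2 and Grb10 had it in E14 cells too, where 3.45% of genes had it in all 3, and Dlk1, Meg3 and Gnas did not, a pattern of 1.46%. Those last 3 were the members with H3K27me3 alone in ureteric epithelium, where 4.6% of genes had that. At 22 members H3K27me3 was found in no population, where 84% of genes lacked it. Igf2, Igf2r, Cdkn1c, Kcnq1, Ndn and Magel2 had it in E14 cells and in neither kidney population, 6 members where 4% of genes did. Both marks stood together at 6 members in cap mesenchyme, 3 in ureteric epithelium and, for E14 cells, 8, where 4.97%, 5.25% and 9.16% of genes had both. Counting any listed start, H3K27me3 was found at 8, 7 and 10 members, where 7.34%, 10.2% and 10.2% of genes had it. Both marks, which here did not need to lie at the same start, were found at 8, 5 and 10, where 5.24%, 5.58% and 9.48% did. In ureteric epithelium Snrpn and Gnas had the marks at different starts. Anywhere in the gene body or 1 kb outside, H3K27me3 was found at 13, 13 and 15 members, where 25.4%, 32.6% and 14.1% of genes had it. H3K27me3 peaks were narrow, with a median of 195 bases in cap mesenchyme, 281 in ureteric epithelium and, for E14 cells, 657, and the lists held 108394, 144362 and 12879 of them. Where 50% of the window had to be covered, H3K27me3 stood at 2, 3 and 5 members, where 2.2%, 3.91% and 4.19% of genes had it. The kidney populations then shared Dlk1 alone. With lists of equal length, which left the E14 list whole, H3K27me3 stood at 5, 2 and 9, where 3.77%, 4.35% and 9.87% did. Of the kidney calls, those at Dlk1 and Grb10 were then shared. Both marks in a population need not lie in the same cell or on the same parental copy.

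Members were also read by the kind of start. In 14 members a start is known to lie at a maternally methylated germline region. Marks were read at the outermost start, which for Snrpn, Mest and Impact need not be that start. H3K4me3 was at 12 of the 14 in cap mesenchyme, 10 in ureteric epithelium and, for E14 cells, 9, where 50.3%, 46.4% and 55.8% of genes had it. At Impact the ureteric call came from the only H3K4me3 peak of its locus, 464 bases from the outer end. H3K27me3 was at 0 of the 14 in any population. Over all genes 84% had none, so a count of 0 of 14 is near the background and is not a result about these starts. Counting any listed start, all 14 had H3K4me3 in cap mesenchyme, 12 in ureteric epithelium and, for E14 cells, 10, where 51.1%, 47.2% and 56.5% of genes had it. H3K27me3 was then called at 1, Snrpn in ureteric epithelium (10.2% of genes), at another start than the innermost. The other 20 members held all the H3K27me3 calls at outermost starts, 6, 6 and 9, where 7.08%, 9.85% and 9.87% of genes had it. The split between the 14 and the 20 was not tested. Grb10 and Gnas also have maternally methylated regions at inner starts and were kept among the 20. At those inner starts H3K27me3 was present, at Grb10 in all 3 populations and at Gnas in E14 cells. In RNA the 14 spanned differences of -1.47 to 1.85, with a median of -0.05 over the 12 at 1 FPKM or more, and the other members spanned -1.59 to 3.55, with a median of 0.23 over 14.

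RNA differences of both signs were found among paternally and maternally expressed members. Of paternally expressed members 8 of the 15 at 1 FPKM or more were above 0, with a median of 0.06, and of maternally expressed members 7 of 9, with a median of 0.91. Over all genes at that level 23.4% were above 0. The 7 include Ube3a, which rounds to 0.00 and is biallelic outside neurons. Neighbours in the Dlk1 to Meg3 and Peg3 clusters weigh on both groups. H3K4me3 peaks at member starts had a median width of 2719 bases in cap mesenchyme, 2707 in ureteric epithelium and, for E14 cells, 3186, where peaks at all marked starts had medians of 2303, 2212 and 2906. Over all 16 loci, each taken with 5 kb on either side, H3K4me3 covered a mean of 14.1% of bases in cap mesenchyme, 12.2% in ureteric epithelium and, for E14 cells, 13.7%. Over all gene bodies with the same margins the means were 7.51%, 6.27% and 14.6%. H3K27me3 covered a mean of 1.27%, 1.71% and 2.31% of the loci, and of gene bodies 1.63%, 2.62% and 1.86%.

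Genes related to these members were read from lists of their own. Of 49 other imprinted genes fixed as a list, 46 had an RNA row and 31 reached 1 FPKM, with a median difference of -0.45 against -0.46 over all genes under the same filter. None was 4-fold higher in mesenchyme and 1 was in ureteric epithelium, Calcr, the calcitonin receptor gene, at 0.02 FPKM in mesenchyme and 4.40 in ureteric epithelium. Slc38a4, an amino acid transporter gene, stood at 16.6 and 56.0 FPKM, Pon2 at 1.14 and 4.02, and Atp10a, a lipid flippase gene, at 2.16 and 0.42. Start marks differed between the kidney populations at Cdh15 and Slc22a2, with H3K4me3 in cap mesenchyme and neither mark in ureteric epithelium, and at Dio3 and Rasgrf1, with H3K4me3 beside H3K27me3 in cap mesenchyme and H3K27me3 alone in ureteric epithelium. Htr2a had H3K4me3 in the 2 kidney populations, joined by H3K27me3 in the ureteric cells, and Ddc had neither mark in cap mesenchyme and H3K27me3 in ureteric epithelium. Dio3 lies in the Dlk1 cluster and had the same marks as Dlk1 in the kidney populations, with RNA of 0.46 and 0.07 FPKM.

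Regulators of imprints were present in both tissues. Of 23 listed, 20 reached 1 FPKM, 0 were 4-fold different in either direction, and the median difference was -0.17. The widest were Dnmt3b, a de novo DNA methyltransferase (4.34 FPKM in mesenchyme and 17.7 in ureteric epithelium), Kdm1b, a histone demethylase needed in the egg (2.5 and 6.15), Uhrf1, which brings DNMT1 to replicating DNA (39.2 and 78.4), and Atrx, a chromatin remodeller (54.6 and 32.7). Among 15 partners of IGF signalling, 1 was 4-fold higher in mesenchyme and 1 in ureteric epithelium. Igfbp5, a binding protein of IGFs, stood at 41.4 and 8.43 FPKM, and Igfbp2, another, at 8.0 and 223. Irs2, an adaptor of insulin and IGF receptors, stood at 4.82 and 20.6 FPKM, and Igf2bp2, an RNA-binding protein of Igf2 transcripts, at 37.5 and 69.2. Between the kidney populations, Igf1 had H3K27me3 beside H3K4me3 in cap mesenchyme where the ureteric cells had H3K4me3 only, and Igfbp3 and Pappa the reverse, with both marks in E14 cells as well.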

How the data were processed

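Histone marks were profiled by native chromatin immunoprecipitation on unfixed cells digested with micrococcal nuclease, and RNA by a stranded total RNA kit, per the labels' protocols. The submitters' processing notes name Bowtie2, MACS, TopHat, Cufflinks and Cuffdiff, without versions, and the build mm10. RNA values are FPKM per transcript with lower and upper bounds and a status, as deposited. Peaks were deposited with a score for each; what the score measures is not given in the sources used here, and it was used only within a list. The lowest score is 50 in the H3K4me3 lists and 40, 30 and 40 in those of H3K27me3 in cap mesenchyme, ureteric epithelium and E14 cells. Depth is unknown, the 3 input samples were not analysed here, and 1 sample a group allows no test, SD or interval.

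Of 138486 transcripts, 107283 were paired to a gene by RefSeq accession and 17906 through the same assembled locus, and FPKM were summed by gene. The 8007 unpaired transcripts, the 5290 with no reference and the 1245 antisense transcripts were left out of the sums. A start was the outermost listed one (26 members) or the outer end of the gene with strand taken from the order of assembled loci (8 members: H19, Cdkn1c, Kcnq1, Rtl1, Peg10, Sgce, Impact and Peg13). That rule gave the listed strand for 24067 of 24067 assembled loci, with the point of change between strands fitted to the listed ones. Set from positions alone, the point gave the same number. For Impact the outer end belongs to a longer predicted transcript. All members are named. From the other lists up to 4 genes with the largest RNA difference at 1 FPKM or more in either library were named, with those whose start marks differed between the kidney populations. Members and lists were chosen with earlier results of these data known. Coverage was checked on simulated intervals, and calling on known changes put into the mesenchyme values without noise. Unchanged genes could not be called there, so that check gives no measure of false calls. Python 3.11.15 with pandas 2.3.3, NumPy 2.4.6 and Matplotlib 3.10.9 was used. Alternatives are given in the closing section.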

Additional observations from a re-analysis of the deposited data

How the results depend on the processing

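Each group holds 1 sample, so no replicate could be left out. No paired analysis was possible because each group compared holds 1 sample. Shares of all genes stand in brackets. Members 4-fold higher in mesenchyme numbered 1 (0.213%) with a pseudocount of 5 FPKM and 5 (1.13%) with differences recentred on 0, where the members' median was 0.52, against 3 (0.727%). With the most abundant transcript of each gene the median was 0.00 and 1 member was higher in ureteric epithelium (1.7%), Asb4. With transcripts that match a reference in full the median was 0.02, Dlk1, Peg3 and Zim1 were higher in mesenchyme (0.695%), Meg3 had no value and so lost its call, and Igf2 turned to -5.23, the 1 called higher in ureteric epithelium (1.54%). The median was 0.05 with no minimum on FPKM, 0.05 paired by accession only, and 0.10 with antisense transcripts added. With a window of 2.5 kb both marks stood at 5 members in ureteric epithelium (8.23%). With at least 50% of the window covered, H3K27me3 stood at 2 (2.2%), 3 (3.91%) and 5 (4.19%) members in cap mesenchyme, ureteric epithelium and E14 cells, and both marks at 1 (1.38%) in cap mesenchyme and 4 (3.78%) in E14 cells. With the better-scoring 50% of every list, H3K4me3 stood at 12 members in ureteric epithelium (36.3%) and both marks at 3 (3.06%) in cap mesenchyme and 1 (1.71%) in ureteric epithelium. The same lists gave H3K4me3 in cap mesenchyme and not ureteric epithelium at 13 (8.75%), the reverse at 0 (0.387%), and in both kidney populations and not E14 cells at 3 (0.742%). With lists of equal length that last pattern stood at 7 (5.44%), H3K27me3 at 2 in ureteric epithelium (4.35%), and both marks at 1 there (2.53%) and 5 in E14 cells (6.43%). With a score of at least 50, H3K27me3 stood at 3 in ureteric epithelium (5.64%). Anywhere in the gene body, H3K27me3 stood at 13 (25.4%), 13 (32.6%) and 15 (14.1%) members and both marks at 13 (18.1%), 10 (19.9%) and 15 (13.3%), and H3K4me3 in ureteric epithelium and not cap mesenchyme at 0 (1.09%). With any listed start, where the marks did not need to share a start, both stood at 5 in ureteric epithelium (5.58%). That H3K4me3 pattern stood at 0 (0.815%).

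Mean coverage of the 16 loci with no flank was 24.1%, 23.5% and 16.8% for H3K4me3 in the same order of populations and 1.29%, 1.56% and 2.22% for H3K27me3. With the upper 50% of each list it was 12.2%, 9.07% and 12.3%, and 1.04%, 1.30% and 1.78%. With lists of equal length it was 13.4% and 11.8% for H3K4me3 in cap mesenchyme and E14 cells, and 0.629% and 0.749% for H3K27me3 in cap mesenchyme and ureteric epithelium. With a score of at least 50, H3K27me3 covered 1.06%, 1.01% and 2.15%. Pairing by accession only, full matches only, added antisense transcripts, any listed start, and the other windows and lists for H3K4me3 differences between populations were chosen after seeing the data. The causes were not tested beyond what each setting removes by construction. For the RNA of single genes 259 values kept their call and 7 passed a threshold they had missed in the same direction. Dlk1 and Zim1 were the 2 that no longer passed, with a pseudocount of 5 FPKM, and Igf2 was the 1 that reversed. Meg3 and Plagl1 with full matches only, and Ascl2 by accession only, had no value. Depth is unknown for both data types.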
